A study of Homo sapiens with 30 samples.

Results

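Replication-dependent histone genes encode the bulk histones that package newly copied DNA. They were taken as every gene-level feature of the array (a transcript cluster) whose only symbol in the platform annotation was H1-1, H1-2, H1-3, H1-4 or H1-5, or H2AC, H2BC, H3C or H4C followed by a number. The rule found 49 of 22011 transcript clusters: 5 genes for the linker histone H1, 11 for H2A, 13 for H2B, 9 for H3 and 11 for H4. T47D cells, an established luminal, hormone receptor-positive breast cancer line, received 10 nM siRNA against luciferase (the control) or against a subunit of negative elongation factor, which made 4 knockdown groups: siNELF-E, siNELF-C, siNELF-B and siNELF-A. Fresh medium followed after 48 hours and the cells were collected 48 hours after that, so all groups shared the line, the dose and the timing. Each of the 5 groups had 3 exon arrays, which the series text calls technical repeats, so every p-value measures the spread between repeats and not between cultures. The RNA was depleted of ribosomal RNA before labelling, a step that does not remove transcripts lacking a poly(A) tail.

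Histones H2A, H2B, H3 and H4 form the nucleosome core, and H1 binds the DNA that enters and leaves it. The genes lie in clusters, mostly on chromosome 6, have no introns, and are transcribed chiefly in S phase. Their messages end in a conserved stem-loop in place of a poly(A) tail. Stem-loop binding protein (SLBP) and the U7 small nuclear ribonucleoprotein direct the cut that makes this end. NELF holds RNA polymerase II close to promoters, and it has also been reported to associate with the cap-binding complex and to take part in forming the stem-loop end, so loss of NELF subunits is known as a setting in which polyadenylated histone transcripts appear. Several histone genes, among them H2BC5, H2BC21, H2AC6 and H4C8, are known to give polyadenylated transcripts as well. Genes of a class can be similar in coding sequence, so an array probe can bind RNA of its paralogs, and single-gene values are uncertain to that extent.

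Upstream sequence was available in RefSeq (GRCh38.p14) for 44 of the 49 genes, matched by symbol, with 39 on chromosome 6, 4 on chromosome 1 and 1 on chromosome 12. H2AC12, H3C11, H3C12, H4C1 and H4C3 had no entry. The 250 bases before each start were searched on both strands for 4 motifs known from histone promoters: the CCAAT box, the TATA box spelled TATAAA, the octamer spelled ATTTGCAT and the H1 box spelled AAACACA. No matches of different motifs overlapped. CCAAT was present in all 5 H1, 10 H2A, 13 H2B and 7 H3 windows and in 3 of 9 H4 windows, against 32% of the windows of all genes. The octamer was present in 8 of 10 H2A and 10 of 13 H2B windows and in none of the other classes, against 1.63% of all windows. The H1 box was present in all 5 H1 windows and in no other class, against 4.82% of all windows, and TATAAA in 29 of the 44, against 10.7%. The last 130 bases before the start are shown for 7 genes on which the results turn, 5 that fell in siNELF-E cells and 2, H2BC21 and H3C10, that did not. Capitals mark the motifs, which are printed as their reverse complement where they lie on the other strand. The windows are chr6:27867589-27867718 (minus strand), chr1:149887966-149888095 (minus strand), chr6:27814892-27815021 (plus strand), chr1:149886683-149886812 (minus strand), chr6:26045254-26045383 (plus strand), chr6:27809921-27810050 (plus strand) and chr6:26027284-26027413 (minus strand).
H1-5: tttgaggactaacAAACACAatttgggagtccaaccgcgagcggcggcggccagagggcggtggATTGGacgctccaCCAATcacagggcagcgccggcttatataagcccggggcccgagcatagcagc
H2AC21: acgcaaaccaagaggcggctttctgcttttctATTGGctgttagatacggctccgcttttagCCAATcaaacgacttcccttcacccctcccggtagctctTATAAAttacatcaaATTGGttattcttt
H2BC14: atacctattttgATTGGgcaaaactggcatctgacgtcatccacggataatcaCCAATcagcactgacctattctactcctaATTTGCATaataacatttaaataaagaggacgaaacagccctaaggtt
H2BC21: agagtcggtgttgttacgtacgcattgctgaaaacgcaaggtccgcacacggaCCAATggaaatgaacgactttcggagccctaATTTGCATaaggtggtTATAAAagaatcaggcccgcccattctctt
H3C3: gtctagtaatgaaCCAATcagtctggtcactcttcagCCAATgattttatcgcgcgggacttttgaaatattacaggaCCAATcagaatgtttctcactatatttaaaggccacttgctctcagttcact
H3C10: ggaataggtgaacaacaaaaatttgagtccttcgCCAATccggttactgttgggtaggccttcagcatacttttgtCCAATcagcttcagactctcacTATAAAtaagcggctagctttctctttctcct
H4C2: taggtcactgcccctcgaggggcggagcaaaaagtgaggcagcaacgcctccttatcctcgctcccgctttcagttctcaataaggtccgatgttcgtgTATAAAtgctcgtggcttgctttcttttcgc

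Motifs were counted separately in genes that fell and in genes that did not pass. Of the genes measured above the low level defined below, the CCAAT box was in 16 of 18 that fell in siNELF-E cells and in 12 of 15 that were not called there. The counts were 12 of 18 and 9 of 15 for TATAAA, 7 of 18 and 5 of 15 for the octamer, and 3 of 18 and 1 of 15 for the H1 box. These are counts of letters in a window and were not tested. In the sequences above, H2BC14, which fell, and H2BC21, which was not called, both hold a CCAAT box and an octamer. H3C3, which fell, and H3C10, which was not called, both hold the CCAAT box more than once.

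The 8 luminal markers had mean log2 levels of 6.78 to 12.4, the 3 leukocyte markers 1.45 to 2.95 and the 2 endothelial markers 2.03 to 3.04. Of 3 basal markers listed 1 was measured, and its level is not given here. It was called in no contrast with control, but was lower in siNELF-E than in siNELF-B cells (-0.95). NELFCD and NELFE, as the median of their probe sets, were lower by 3.71 and 2.61 log2 units in siNELF-C and siNELF-E cells. NELFA was lower by 0.61 in siNELF-A cells, where NELFE was higher by 0.61. NELFCD was lower by as much there (0.63) and by 0.71 in siNELF-B cells, where NELFE was lower by 0.43, and NELFE was also lower in siNELF-C cells (0.49). For siNELF-B the target was not checked, since no probe set was found under the symbol NELFB alone. Levels are deposited log2 RMA values, and a level below 3.901, the 40th percentile of cluster means, is called low and given no fold. The mean correlation of siNELF-B replicate 2 over all clusters was 0.9845 with the control arrays and 0.945 with the rest of its group. SiNELF-B replicate 3 had an interquartile range of 3.12, against 3.95 to 4.12 on the control arrays. Counts, calls between knockdowns and list counts that rest on these arrays are therefore also given without them, an alternative chosen with earlier results known. P-values are from limma, with Benjamini-Hochberg adjustment over all 22011 clusters, and a gene is called where its adjusted p is below 0.05 and its change at least 1.5-fold.

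**Figure D1:**
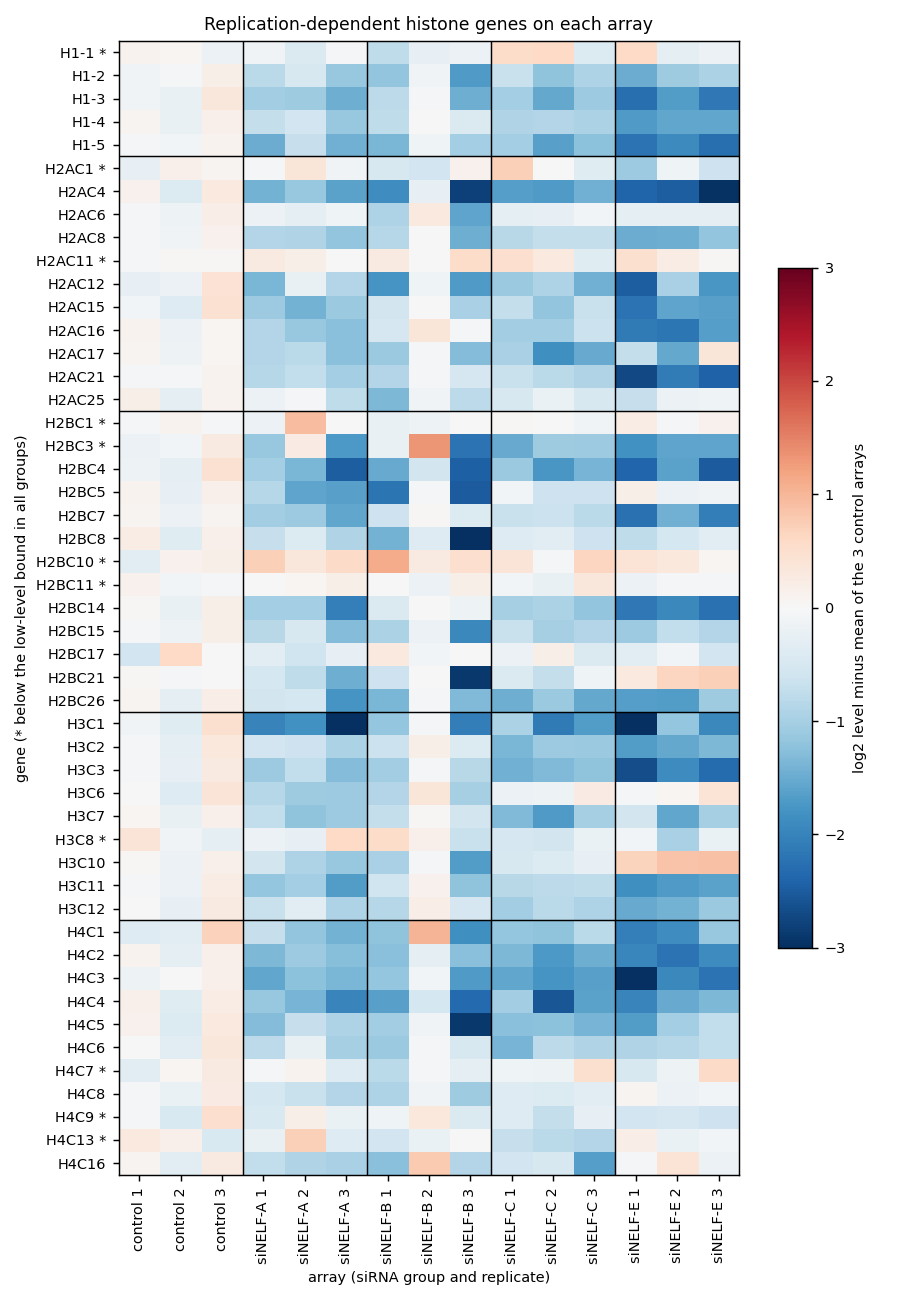
Each cell gives the log2 level of a histone gene (rows, by class) on an array (columns) minus the mean of the 3 control arrays; the colour scale stops at -3 and 3, and 4 values lie below it. Blue fills most rows of the siNELF-A, siNELF-C and siNELF-E columns and of siNELF-B replicates 1 and 3, while siNELF-B replicate 2 resembles the controls; asterisks mark the 11 genes at low level in every group.

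Histone genes were lower in the average of the 4 NELF siRNA groups, and the shift took in all 5 classes. Averaged over the 4 knockdowns, 22 of 49 genes fell (44.9%, against 4.46% of all clusters called lower), and none was called higher by limma (0.35% of all clusters; 1 histone gene was higher at an unadjusted p below 0.05). The median histone change was -0.93 on the log2 scale, against -0.08 for all clusters. Those 22 genes were 4 of 5 H1, 5 of 11 H2A, 4 of 13 H2B, 6 of 9 H3 and 3 of 11 H4 genes. The uncalled genes included 11 at low level in every group (H1-1, H2AC1, H2AC11, H2BC1, H2BC3, H2BC10, H2BC11, H3C8, H4C7, H4C9 and H4C13), whose mean levels were 1.32 to 3.51. Mean levels of the other 38 ranged from 4.17 to 10.4. All 12 knockdown arrays lay below all 3 control arrays for 7 genes (14.3%, against 4.86% of all clusters): H1-2, H1-5, H2AC21, H2BC4, H2BC15, H4C2 and H4C4.

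The knockdowns differed in how many histone genes passed. In siNELF-E cells 22 genes fell (44.9%, against 4.04% of all clusters), in siNELF-C cells 15 (30.6%, against 5.3%) and in siNELF-A cells 12 (24.5%, against 2.83%). SiNELF-B cells had 1 such gene, H4C2 (2.04%, against 4.19%), a share below that of all clusters. The median histone change was -1.15 in siNELF-E, -0.86 in siNELF-C, -0.87 in siNELF-A and -0.56 in siNELF-B cells. For all clusters the medians were -0.02, -0.08, -0.03 and -0.14 in the same order. No histone gene was called higher by limma in any of the 4 (1.44%, 0.922%, 0.495% and 0.204% of all clusters in that order), and at an unadjusted p below 0.05 the counts were 1, 0, 1 and 1. The 4 comparisons share the control arrays. H4C2 fell in all 4 (0.477% of all clusters did), and 8 genes fell in each of siNELF-E, siNELF-C and siNELF-A (0.854%): H1-4, H1-5, H2AC16, H2AC21, H2BC14, H3C3, H4C2 and H4C3.

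Calls in siNELF-E cells were kept most often when an array was left out. Of the 22, 16 remained in every fit that left out a single one of the 15 arrays: H1-3, H1-4, H1-5, H2AC4, H2AC8, H2AC15, H2AC16, H2AC21, H2BC7, H2BC14, H3C2, H3C3, H3C11, H3C12, H4C2 and H4C3. For siNELF-C 2 of 15 calls did so, H3C2 and H4C2, and for siNELF-A none of 12 did. Leaving out a control array lowered the counts. Without control replicate 3 the counts were 16 in siNELF-E, 2 in siNELF-C, 0 in siNELF-A and 8 in the average, against 2.34%, 1.34%, 0.959% and 1.21% of all clusters. Without control replicate 1 they were 17, 4, 1 and 11, against 2.68%, 1.86%, 1.09% and 1.66% of all clusters. Without control replicate 2 they were 17, 6, 5 and 14, against 2.97%, 2.33%, 1.62% and 2.17%. The histone median on control replicate 3 was 0.17 above the mean of the 3 controls, and on control replicate 2 it was 0.18 below. Leaving out siNELF-B replicates 2 and 3 raised the counts to 28, 31, 30 and 33 in siNELF-E, siNELF-C, siNELF-A and the average, against 7.81%, 14.8%, 8.97% and 9.69% of all clusters. The single siNELF-B array that is then left gave 23 lower genes (17.8% of all clusters), on the assumption that it varies like the other groups. Then 12 genes were lower in all 4 knockdowns (1.92% of all clusters).

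The siNELF-B arrays differed among themselves on these genes. The median histone difference from the control mean was -0.87 on replicate 1 and -0.99 on replicate 3, but -0.06 on replicate 2. On the same arrays the median of all clusters was -0.16, -0.30 and -0.01. The 3 siNELF-B arrays lay below all 3 control arrays for 9 of 49 histone genes (18.4%), near the 16.6% of all clusters. With replicate 2 alone left out, 32 histone genes were called lower in siNELF-B, against 30.3% of all clusters. With replicate 3 alone left out, limma called none lower in siNELF-B, against 1.44%, and 27, 26, 25 and 25 were called in siNELF-E, siNELF-C, siNELF-A and the average, against 7.01%, 13.4%, 7.71% and 6.24% of all clusters. Levels on each siNELF-B array are therefore given below for most of the genes the results turn on.

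**Figure D2:**
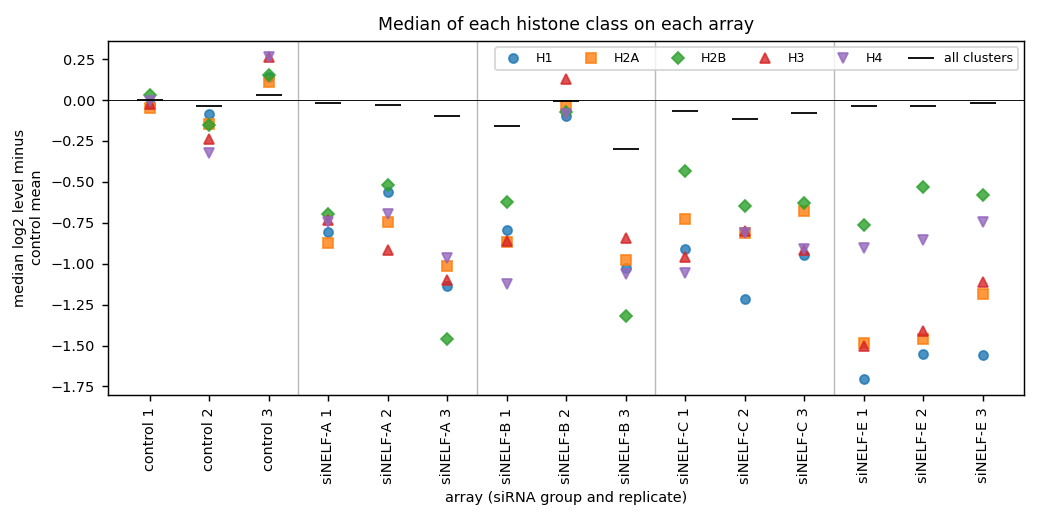
Points give, for each array, the median over the genes of a histone class of the log2 level minus the control mean; black bars give the median of all clusters. The histone medians of the siNELF-A, siNELF-C and siNELF-E arrays and of siNELF-B replicates 1 and 3 lie well below the bars, and on the siNELF-E arrays H1 is lowest and H2B highest.

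On the siNELF-E arrays the histone median was -1.48, -1.07 and -0.95, and 40 to 43 of the 49 genes were below the control mean. On the siNELF-A arrays it was -0.79, -0.69 and -1.12, and on the siNELF-C arrays -0.72, -0.81 and -0.87. Separation from the controls was common outside these genes too. The 3 siNELF-C arrays lay below all 3 controls for 34 histone genes (69.4%, against 31.3% of all clusters), the siNELF-A arrays for 33 (67.3%, against 22.5%) and the siNELF-E arrays for 30 (61.2%, against 21.1%). In bulk RNA, fewer cells in S phase and less histone RNA in each such cell cannot be told apart.

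The linker histone genes H1-3, H1-4 and H1-5 fell in siNELF-E cells by 3.04- to 4.39-fold. H1-5 (cluster 2947073) read 9.50, 9.44 and 9.63 on the control arrays and 7.31, 7.61 and 7.26 on the siNELF-E arrays. It read 8.02, 8.84 and 8.09 in siNELF-A, 8.14, 9.39 and 8.49 in siNELF-B, and 8.50, 7.89 and 8.30 in siNELF-C. All 12 knockdown arrays were below the controls, and the siNELF-E arrays were the lowest of all 15. The fall was 4.39-fold in siNELF-E (log2 change -2.13, SE 0.30, adjusted p = 0.000816), 2.31-fold in siNELF-A (adjusted p = 0.0422) and 2.45-fold in siNELF-C (0.0226). The siNELF-A call was lost on leaving out any 1 of 11 arrays (up to 0.171 without siNELF-A replicate 3) and the siNELF-C call any 1 of 5 (up to 0.106 without siNELF-C replicate 2). The siNELF-B value of -0.85 did not pass (0.0906). H1-3 (2946353) averaged 8.53 ± 0.30 in control and 6.49 ± 0.31 in siNELF-E cells (SD, n = 3 arrays in each), a 4.09-fold fall (adjusted p = 0.00153). H1-4 fell 3.04-fold (adjusted p = 0.000284). H1-2 was lower on all 12 knockdown arrays, with values of -0.81 to -1.17 that passed in no single knockdown, and its average call (-0.98, adjusted p = 0.0438) was lost on leaving out any 1 of 12 arrays, at adjusted p up to 0.229 without control replicate 3. On the siNELF-B arrays H1-2 read 7.82, 8.90 and 7.30, against 8.90, 8.93 and 9.17 in control. H1-1 was at low level throughout (3.16 to 3.80 in group means).

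**Figure D3:**
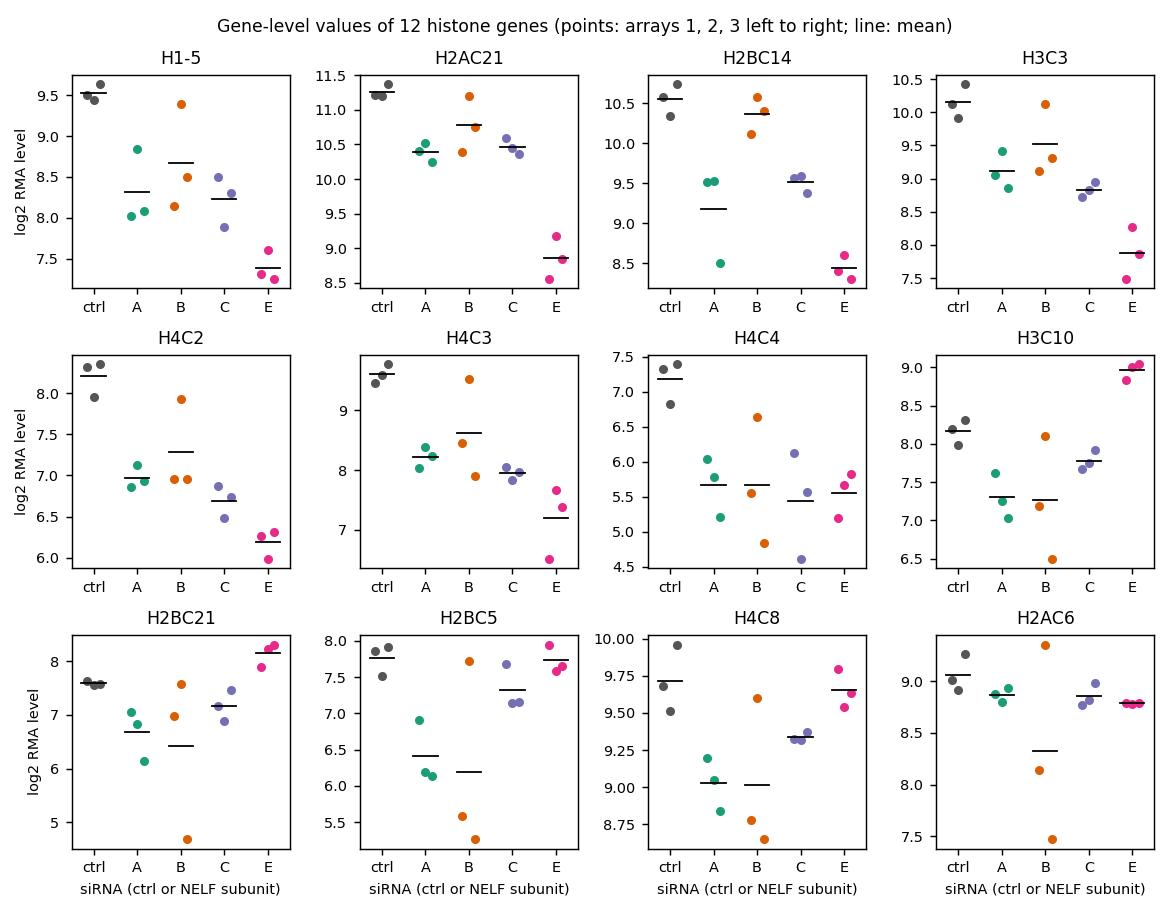
Log2 RMA levels of 12 histone genes on each of the 15 arrays, with points for replicates 1, 2 and 3 from left to right and a line for the group mean; the axes differ between panels and levels are not comparable between genes. In the first 7 panels the siNELF-E points lie well below all control points, for H2AC6 they lie just below, and for H3C10 they lie above every other array.

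H2A genes included the gene with the smallest adjusted p of all members. H2AC21 (2434129) read 11.22, 11.20 and 11.37 in control and 8.56, 9.18 and 8.85 in siNELF-E cells. It read 10.41, 10.52 and 10.25 in siNELF-A, 10.40, 11.20 and 10.76 in siNELF-B, and 10.59, 10.45 and 10.36 in siNELF-C. The siNELF-E arrays were more than 1 log2 unit below every other array, and siNELF-B replicate 2 was level with the lowest control. The fall was 5.29-fold in siNELF-E (log2 change -2.40, SE 0.20, adjusted p = 1.42e-05), and 1.83- and 1.74-fold in siNELF-A and siNELF-C (0.0294 and 0.0313). Those last calls were each lost on leaving out any 1 of 6 arrays, with adjusted p up to 0.128 without siNELF-A replicate 3 and without control replicate 3, respectively. H2AC16 (2900091) fell 3.93-fold in siNELF-E (adjusted p = 0.000178), 2.12-fold in siNELF-A (0.0166) and 1.88-fold in siNELF-C (0.0274), and its siNELF-B value was -0.07 (0.85), or -0.51 (0.163) on replicate 1 alone. On the siNELF-B arrays it read 8.84, 9.71 and 9.30, against 9.47, 9.18 and 9.41 in control. The siNELF-A call was lost on leaving out any 1 of 4 arrays (up to 0.0823 without siNELF-A replicate 3). The siNELF-C call was lost on leaving out any 1 of 5 (up to 0.112 without siNELF-C replicate 2). H2AC15 (2947063) fell 3.51-fold in siNELF-E (adjusted p = 0.00173) and 2.31-fold in siNELF-A (0.0331). The second call was lost on leaving out any 1 of 5 arrays (up to 0.154 without control replicate 3). H2AC4 (2946219) averaged 5.99 ± 0.38 in control and 3.37 ± 0.32 in siNELF-E cells (SD, n = 3 arrays in each), the most negative change of all members (-2.61, SE 0.47, adjusted p = 0.00458). That end level is below the low level, so the size of the fall is uncertain. Without control replicate 1 or 3 the average call of H2AC4 was lost (adjusted p = 0.08 and 0.106), and so was that of H2AC15 (0.0612 and 0.122). H2AC6 and H2AC25, bright genes that were not called, had siNELF-E values of -0.28 and -0.34 (adjusted p = 0.789 and 0.678).

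H2B genes gave 4 of 13 calls in siNELF-E cells. H2BC14 (2900059) read 10.59, 10.34 and 10.74 in control and 8.40, 8.61 and 8.31 in siNELF-E cells. Its values were 9.52, 9.53 and 8.50 in siNELF-A, 10.12, 10.57 and 10.41 in siNELF-B, and 9.57, 9.60 and 9.38 in siNELF-C. The siNELF-B arrays overlapped the controls, and the other 3 groups did not. The fall was 4.33-fold in siNELF-E (log2 change -2.11, SE 0.24, adjusted p = 0.000212), 2.58-fold in siNELF-A (0.00822) and 2.05-fold in siNELF-C (0.024). The siNELF-A call of H2BC14 was lost without control replicate 3 (adjusted p = 0.0503). Its siNELF-C call was lost on leaving out any 1 of 5 arrays (up to 0.108 without control replicate 3). H2BC7 (2899206) fell 3.79-fold in siNELF-E and 2.34-fold in siNELF-A (adjusted p = 0.000251 and 0.0097). The second call was lost on leaving out any 1 of 3 arrays (up to 0.0545 without control replicate 3). H2BC4 (2946268) fell 4.48-fold in siNELF-E (adjusted p = 0.0139), a call lost without control replicate 3 (0.0729), siNELF-E replicate 1 or siNELF-E replicate 3. Its average call (-1.68, adjusted p = 0.0188) was lost without any 1 control array, at adjusted p up to 0.153. H2BC26 (2384268) fell 2.76-fold in siNELF-E and 2.59-fold in siNELF-C (adjusted p = 0.0379 and 0.0466), but these calls were lost on leaving out any 1 of 9 and any 1 of 12 arrays (up to 0.141 and 0.167, without control replicate 3). H2BC21 and H2BC5, the brightest H2B genes that were not called, had average values of -0.49 and -0.85 (adjusted p = 0.488 and 0.198). The average of H2BC5 was called without siNELF-B replicates 2 and 3 (adjusted p = 0.00305).

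H3 genes gave 6 of 9 calls in siNELF-E cells. H3C3 (2899102) read 10.13, 9.92 and 10.42 in control and 7.49, 8.28 and 7.86 in siNELF-E cells. It read 9.06, 9.41 and 8.85 in siNELF-A, 9.12, 10.13 and 9.31 in siNELF-B, and 8.72, 8.83 and 8.95 in siNELF-C. The siNELF-E arrays were the lowest of the 15, and siNELF-B replicate 2 was level with the controls. The fall was 4.86-fold in siNELF-E (log2 change -2.28, SE 0.27, adjusted p = 0.000248), 2.07-fold in siNELF-A (0.0484) and 2.50-fold in siNELF-C (0.0128). The siNELF-A and siNELF-C calls were lost on leaving out any 1 of 11 and any 1 of 3 arrays (adjusted p up to 0.203 and 0.0713, without control replicate 3). H3C11 (2947077) fell 3.27-fold in siNELF-E (adjusted p = 0.00221) and 2.43-fold in siNELF-A (0.0225). The second call was lost on leaving out any 1 of 4 arrays (up to 0.111 without siNELF-A replicate 3). H3C2 (2946215) fell 2.87-fold in siNELF-E and 2.28-fold in siNELF-C (adjusted p = 0.000874 and 0.00682), and both calls remained without any 1 array. H3C1 (2899090) had the largest fall of all members in siNELF-A, 4.86-fold (log2 change -2.28, SE 0.55, adjusted p = 0.0407), and fell 4.13-fold in siNELF-E (0.0478). Each of these calls was lost on leaving out any 1 of 11 arrays, with adjusted p up to 0.182 without siNELF-A replicate 3 and 0.202 without siNELF-E replicate 1.

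H4 genes included H4C2 (2946208), the gene called lower in every knockdown. It read 8.32, 7.95 and 8.35 in control, 6.86, 7.12 and 6.93 in siNELF-A, and 6.96, 7.93 and 6.96 in siNELF-B cells. On the siNELF-C arrays it read 6.87, 6.48 and 6.74, and on the siNELF-E arrays 6.26, 5.99 and 6.32. All 12 knockdown arrays were below the controls, although siNELF-B replicate 2 was only just so. The fall was 4.05-fold in siNELF-E, 2.85-fold in siNELF-C, 2.35-fold in siNELF-A and 1.90-fold in siNELF-B (adjusted p = 0.000249, 0.00355, 0.0126 and 0.0458). The siNELF-B call was lost on leaving out any 1 of 14 arrays and the siNELF-A call any 1 of 3. Without control replicate 3 the adjusted p was 0.165 in siNELF-B and 0.0658 in siNELF-A. H4C3 (2899146) read 9.46, 9.60 and 9.77 in control and 6.52, 7.67 and 7.39 in siNELF-E cells, with no overlap, and fell 5.34-fold (log2 change -2.42, SE 0.35, adjusted p = 0.00112). It fell 2.61-fold in siNELF-A (adjusted p = 0.0489) and 3.15-fold in siNELF-C (0.0164). These calls were lost on leaving out any 1 of 12 and any 1 of 5 arrays (up to 0.18 and 0.0767, without control replicate 3). H4C4 (2946319) fell 3.07-fold in siNELF-E and 3.35-fold in siNELF-C (adjusted p = 0.0497 and 0.0342), and these calls were lost on leaving out any 1 of 11 arrays (up to 0.183 without siNELF-E replicate 1) and any 1 of 6 (up to 0.148 without siNELF-C replicate 2). H4C6 was called in siNELF-C and in no other knockdown (-1.03, adjusted p = 0.0444). That call was lost on leaving out any 1 of 10 arrays (up to 0.188 without control replicate 3). H4C8, a bright H4 gene, was not called in any knockdown (-0.06 to -0.71), and read 8.78, 9.60 and 8.65 on the siNELF-B arrays, against 9.68, 9.51 and 9.96 in control.

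Differences between knockdowns were tested directly over the 6 pairs. SiNELF-E cells were lower than siNELF-A cells for 4 genes (8.16%, against 1.49% of all clusters), than siNELF-C cells for 4 (8.16%, against 1.59%) and than siNELF-B cells for 14 (28.6%, against 1.16%). H3C10 was the 1 gene called higher in siNELF-E in each of these pairs (2.56%, 3.59% and 5.74% of all clusters). Without siNELF-B replicates 2 and 3, siNELF-E cells were lower than siNELF-B cells for 13 genes and higher for 9, against 3.18% and 13.9% of all clusters. The 9 were H2AC6, H2AC25, H2BC5, H2BC8, H2BC21, H3C6, H3C10, H4C8 and H4C16. Against siNELF-C they were then lower for 13 genes and higher for 3, H2BC21, H3C10 and H4C16 (3.19% and 9.74% of all clusters). H2AC21 and H2AC16 were lower in siNELF-E than in each of the other 3 knockdowns. For H2AC21 the differences were -1.53, -1.92 and -1.61 against siNELF-A, siNELF-B and siNELF-C (SE 0.20 each, adjusted p = 0.000749, 0.000265 and 0.000561), and all 3 remained without any 1 array. For H2AC16 they were -0.89, -1.91 and -1.07 (adjusted p = 0.0361, 0.000515 and 0.0131), of which the first was lost on leaving out any 1 of 10 arrays and the last any 1 of 3 (0.148 and 0.0651 without siNELF-E replicate 2). H1-4 and H3C3 were also lower than in siNELF-A (-0.80 and -1.23, adjusted p = 0.0332 and 0.0183). The first call was lost on leaving out any 1 of 9 arrays (up to 0.147 without siNELF-A replicate 2). The second was lost on leaving out any 1 of 4 (up to 0.0919 without siNELF-E replicate 1). H2BC7 and H2BC14 were lower than in siNELF-C (-1.22 and -1.08, adjusted p = 0.00691 and 0.0215). The H2BC14 call was lost on leaving out any 1 of 5 arrays (up to 0.0951 without siNELF-E replicate 3). Of the 14 genes lower than in siNELF-B, the largest differences were -1.93 for H2BC14, -1.92 for H2AC21 and -1.91 for H2AC16. On siNELF-B replicate 1 alone these were -1.68, -1.53 and -1.46 (adjusted p = 0.0065, 0.000998 and 0.00234), and H1-5 and H3C12 were no longer called (0.125 and 0.236).

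Between siNELF-C and siNELF-A cells limma called no histone gene (1.66% of all clusters lower and 1.21% higher in siNELF-C), with 4 histone genes at an unadjusted p below 0.05. When siNELF-B replicates 2 and 3 were left out, H2BC5 and H3C6 were higher in siNELF-C (7.07% of all clusters lower and 2.88% higher). H3C2 was lower in siNELF-C than in siNELF-B (-0.90, adjusted p = 0.0483; 0.536% of all clusters), a call lost on leaving out any 1 of 12 arrays (up to 0.2 without siNELF-C replicate 1), and none was called higher (1.6%; 3 higher at an unadjusted p below 0.05). Without siNELF-B replicates 2 and 3 the calls ran the other way: H3C2 was at -0.54 (adjusted p = 0.198), no gene was lower (2.22% of all clusters), and H2AC6, H2BC5 and H2BC8 were higher in siNELF-C (6.05%). H2BC14, H2AC16 and H2BC7 were higher in siNELF-B than in siNELF-A (differences of 1.18, 1.02 and 0.89, adjusted p = 0.0192, 0.0227 and 0.042; 0.818% of all clusters), and none was lower by limma (3.46%; 0 at an unadjusted p below 0.05). The H2BC14 difference remained on leaving out any 1 array, the H2AC16 difference was lost on leaving out any 1 of 3 arrays (up to 0.0938 without siNELF-A replicate 2), and the H2BC7 difference any 1 of 11 (up to 0.123 without siNELF-A replicate 3). On siNELF-B replicate 1 alone none of the 3 was called (0.94, 0.58 and 0.60, adjusted p = 0.0937, 0.148 and 0.209), no histone gene was higher in siNELF-B (3.03% of all clusters), and H2AC6 and H2AC25 were lower (10.6%). Without siNELF-B replicate 2 alone, 3 genes were higher in siNELF-B and 4, H2AC4, H2AC6, H2BC5 and H2BC8, were lower. The share of all clusters for this pair in that fit was not counted, so these counts have no background. The direction of the calls between siNELF-B and siNELF-A turned with siNELF-B replicates 2 and 3, as did that between siNELF-C and siNELF-B. For neither pair is a direction read as a result about histone genes.

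**Figure D4:**
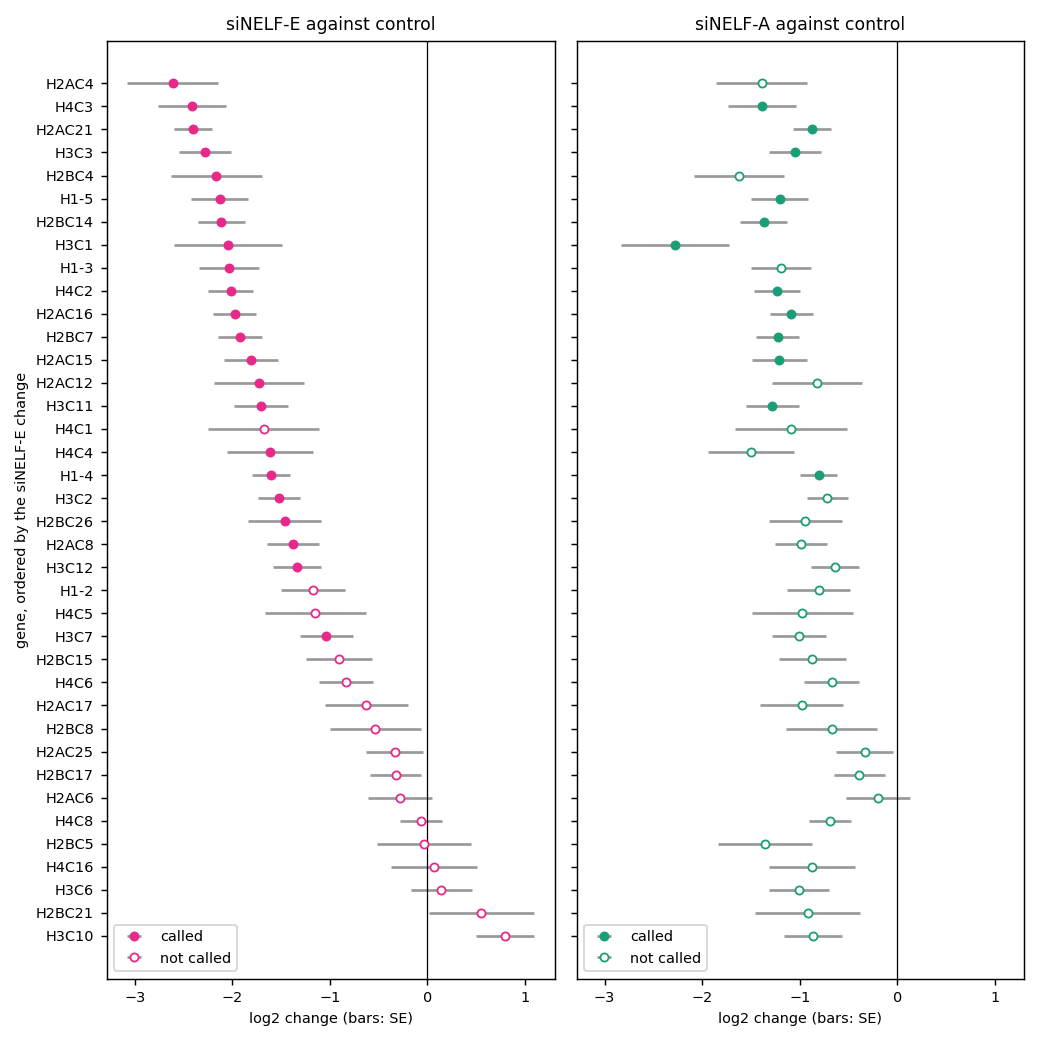
Log2 changes against control in siNELF-E (left) and siNELF-A cells (right) for the 38 histone genes above the low level, in the order of the siNELF-E change; bars are standard errors and filled points are called. The siNELF-E changes run from -2.61 (H2AC4) to 0.79 (H3C10), and several genes near or above 0 in siNELF-E lie well below 0 in siNELF-A.

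Of the 38 histone genes above the low level, 22 fell in siNELF-E cells and 4 had estimates above 0: H3C10, H2BC21, H3C6 and H4C16. In a fit of only the clusters above that level, 23 of the 38 fell (60.5%, against 6.68% of those clusters). H3C10 (2900051) read 8.19, 7.99 and 8.31 in control and 8.83, 9.01 and 9.04 in siNELF-E cells. It read 7.62, 7.25 and 7.03 in siNELF-A, 7.19, 8.10 and 6.50 in siNELF-B, and 7.67, 7.74 and 7.92 in siNELF-C. The siNELF-E arrays were above all 12 others, and the siNELF-A and siNELF-C arrays were below the controls. Against control the siNELF-E value of 0.79 did not pass (SE 0.30, adjusted p = 0.177), but it passed without siNELF-B replicate 2 (0.018) or replicate 3 (0.0294). H3C10 was higher in siNELF-E than in siNELF-A cells by 1.66 log2 units (SE 0.30, adjusted p = 0.007), and also higher than in siNELF-B (1.70, adjusted p = 0.00656) and siNELF-C (1.18, 0.0395). The siNELF-A and siNELF-B differences remained without any 1 array, and the siNELF-C difference was lost on leaving out any 1 of 11 (up to 0.138 without siNELF-E replicate 3).

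H2BC21 (2434124) read 7.63, 7.57 and 7.58 in control, 7.06, 6.84 and 6.13 in siNELF-A, and 7.90, 8.23 and 8.31 in siNELF-E cells. The siNELF-A arrays were below and the siNELF-E arrays above the controls. Neither change passed (-0.92 and 0.55, adjusted p = 0.418 and 0.727), nor did the difference between these knockdowns (1.47, SE 0.54, adjusted p = 0.173). On the siNELF-B arrays H2BC21 read 6.97, 7.57 and 4.69, the widest range of its groups. H2BC5 (2899176) read 7.86, 7.51 and 7.92 in control, 6.91, 6.19 and 6.13 in siNELF-A, and 7.95, 7.58 and 7.65 in siNELF-E cells. Its siNELF-E arrays overlapped the controls and its siNELF-A arrays did not, with a difference of 1.32 that did not pass (adjusted p = 0.177). H3C6 (-1.01 in siNELF-A, 0.14 in siNELF-E, difference 1.15, adjusted p = 0.0569) and H4C8 (-0.69 and -0.06, difference 0.63, 0.144) had the same order. Without siNELF-B replicates 2 and 3, H2BC21, H2BC5, H3C6, H4C8 and H3C10 were each called lower in siNELF-A (adjusted p = 0.0177, 0.00234, 0.00609, 0.00517 and 0.00306), and H3C10 was called higher in siNELF-E (2.86% of all clusters). The differences between siNELF-E and siNELF-A themselves, whose values do not use those arrays but whose spread does, then passed for 6 genes that were higher in siNELF-E (12.2% of members, against 5.97% of all clusters): H3C10, H2BC21, H2BC5, H3C6, H4C8 (adjusted p = 4.16e-05, 0.00114, 0.00236, 0.00257 and 0.00819) and H4C16 (0.0468). In the same fit 12 genes were lower (24.5%, against 3.71%). H2AC6, another bright gene, was near control in both (-0.20 in siNELF-A and -0.28 in siNELF-E).

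Among the 44 member genes with upstream sequence, RefSeq places 7 pairs of H2A and H2B genes head to head. Their upstream windows overlap on opposite strands, and 2 of these pairs were at low level. Partners outside the members were not searched. In siNELF-E cells, H2BC4 fell by 2.16 log2 units while its partner H2AC6 was at -0.28. H2AC15 fell by 1.81 and its partner H2BC15 was at -0.91 (adjusted p = 0.173), a value that passed without siNELF-B replicate 2 (0.0389) or 3 (0.0205). On the exon level 3 of the 4 probe sets of H2BC15 were at -1.63 to -2.06. H2AC8 fell by 1.37 with H2BC8 at -0.53, and H2BC26 fell by 1.46 with H2AC25 at -0.34. The fifth pair, H2AC17 and H2BC17, had values of -0.63 and -0.33, and neither passed. H2AC21 and H2BC21 lie close together on chromosome 1 on the same strand, and had siNELF-E values of -2.40 and 0.55. The differences within pairs were not tested, since values of different probe groups are not on a common scale.

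**Figure D5:**
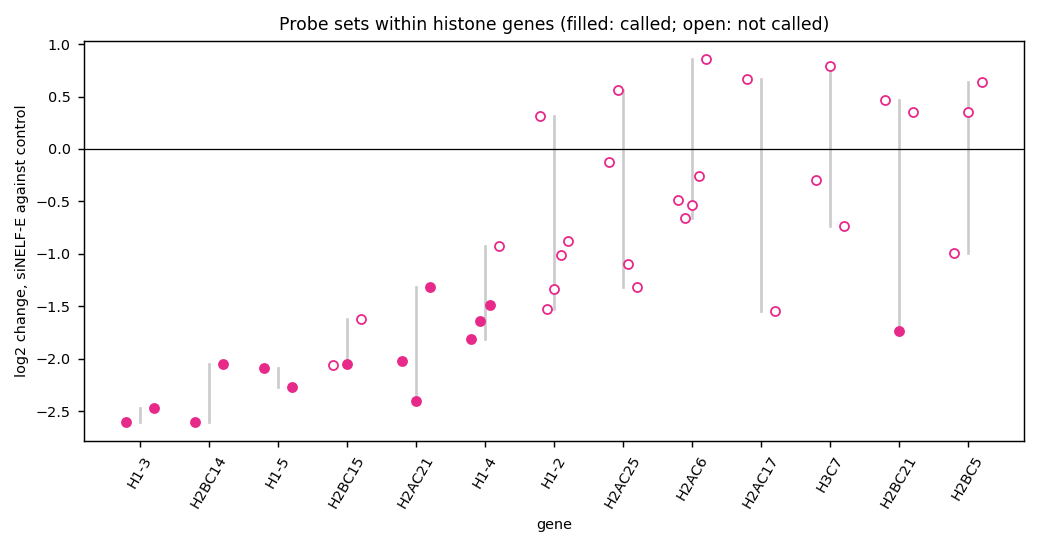
Each point is the siNELF-E log2 change of an exon-level probe set above the low level, grouped by gene for genes with at least 2 such probe sets; filled points are called and grey lines span the gene. The probe sets of H1-3, H2BC14, H1-5, H2BC15, H2AC21 and H1-4 are all negative, while those of H1-2, H2AC25, H2AC6, H2AC17, H3C7, H2BC21 and H2BC5 lie on both sides of 0.

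Exon-level probe sets each read a short stretch of a gene. A probe set under its symbol alone existed for 30 of the 49 genes, 81 in all, with 1 to 7 per gene, and these are not replicates. In siNELF-E cells 16 of 81 probe sets fell (19.8%, against 1.35% of all probe sets). The counts were 11 in the average (13.6%, against 0.818%), 3 in siNELF-C (3.7%, against 0.969%), 2 in siNELF-A (2.47%, against 0.556%) and 0 in siNELF-B by limma (0.157% of all; 18 at an unadjusted p below 0.05). Of the 47 probe sets above the low exon level of 4.195, 15 fell in siNELF-E cells, with a median of -1.23. The share among all probe sets above that level was not counted, and the 1.35% covers all levels. All 3 probe sets of H1-5 fell in siNELF-E cells (-1.95 to -2.27, 1 of them at low level), as did all 3 of H2AC21 (-1.32 to -2.40) and both of H2BC14 (-2.61 and -2.05).

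The 3 probe sets of H2BC21 gave unlike values. Probe set 2434127 read 11.13, 10.61 and 10.88 in control, 9.60, 9.78 and 8.89 in siNELF-A, and 9.14, 9.24 and 9.03 in siNELF-E cells, with no overlap. It fell by 1.74 log2 units in siNELF-E (adjusted p = 0.00558) and by 1.45 in siNELF-A (0.0324). Probe sets 2434126 and 2434128 had siNELF-E values of 0.47 and 0.36 (adjusted p = 0.853 and 0.954). Relative to the other probe sets of the gene, 2434127 was lower by 2.15 in siNELF-E cells, which did not pass the probe-set usage test (limma's diffSplice, unadjusted p = 0.00709, adjusted p = 0.655). In H2BC5 the 3 probe sets read -0.99, 0.36 and 0.64, and in H2AC6 the 5 above the low exon level ran from -0.66 to 0.86, with none called. H3C7 was called lower in siNELF-E at gene level (-1.04), a call lost on leaving out any 1 of 9 arrays. Its 3 probe sets above the low exon level were at -0.73, -0.30 and 0.79, with none called.

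H2BC15 was the 1 histone gene with a called change of probe-set usage. In siNELF-E cells probe sets 2900076, 2900077 and 2900078 had changes of -2.06, -2.05 and -1.63, of which 2900077 was called (adjusted p = 0.00202). Probe set 2900079 read 2.26, 3.66 and 3.69 in control and 3.94, 4.86 and 4.81 in siNELF-E cells, so its arrays did not overlap. Relative to the other probe sets it was higher by 3.24 (diffSplice adjusted p = 0.00303), but its control levels are below the low exon level. Usage was tested for 51 probe sets of 17 histone genes. That was the 1 call in siNELF-E (1.96%, against 0.115% of all 196920 probe sets tested), with 13 at an unadjusted p below 0.05. None was called in siNELF-C, siNELF-A, siNELF-B or the average (0.435%, 0.17%, 0.615% and 0.281% of all), with 4, 3, 1 and 4 at an unadjusted p below 0.05. This test was chosen with the probe-set values known.

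Some histone variants that are also made outside S phase fell too. Of 8 measured histone variants (of 12 listed), not all of them independent of the cell cycle, 2 fell in the average contrast (median -0.59), with 3, 5, 1 and 0 in siNELF-E, siNELF-C, siNELF-A and siNELF-B cells. Of all clusters 4.46% were called lower on average, and 4.04%, 5.3%, 2.83% and 4.19% in these knockdowns, the shares against which the counts of this and the following lists are set. Without siNELF-B replicates 2 and 3 the counts were 5 on average and 6, 6, 2 and 4 (9.69%, 7.81%, 14.8%, 8.97% and 17.8% of all clusters). In the fit on all arrays 4 in siNELF-B were at an unadjusted p below 0.05. H2AX, the variant phosphorylated at DNA breaks, fell 2.08-fold (log2 change -1.06, SE 0.17, adjusted p = 0.00428). CENPA, the H3 variant of centromeres, fell 1.97-fold on average (adjusted p = 0.00501) and by 1.93 log2 units in siNELF-E cells. H2AZ1 (-0.77, adjusted p = 0.113) and MACROH2A1 (0.04, 0.925) did not pass, but H2AZ1 was called without siNELF-B replicates 2 and 3 (-0.84, 0.00482).

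Genes listed for processing of message ends, among them general cleavage and polyadenylation factors such as NUDT21 and CPSF4, were mostly not called in the fit on all arrays. Of 24 measured (of 31 listed), 0 fell in the average contrast by limma, with 9 at an unadjusted p below 0.05 and a median of -0.40. In single knockdowns the calls were 1 in siNELF-E, 1 in siNELF-C, 2 in siNELF-B and 0 in siNELF-A (0 at an unadjusted p below 0.05), or 4.17%, 4.17%, 8.33% and 0%. With the 2 siNELF-B arrays left out, 4 of 24 fell in siNELF-E, 10 of 24 in siNELF-C and 0 in siNELF-A (7.81%, 14.8% and 8.97% of all clusters). Their medians were then -0.36 on average and -0.49 in siNELF-B. SLBP was at -0.13 on average (SE 0.26, adjusted p = 0.777) and at 0.05 in siNELF-E cells (0.976). ZNF473, a zinc finger protein of the U7 complex, fell in siNELF-E (-0.77, adjusted p = 0.0433). NCBP2, the small subunit of the cap-binding complex, fell in siNELF-B (-1.29, adjusted p = 0.0222) with a siNELF-E value of 0.39 (0.522). The other calls were SNRPB in siNELF-B (-0.81, adjusted p = 0.0441) and CPSF4 in siNELF-C (-0.88, 0.0458). NUDT21 did not pass (-0.48, 0.189).

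Some genes listed for histone gene transcription, a list that includes cell cycle genes such as CCNA2 and CDC25A, fell in siNELF-E cells. Of 14 measured (of 20 listed), 4 fell on average (median -0.38), and 5, 3, 0 and 1 in siNELF-E, siNELF-C, siNELF-A and siNELF-B, with 2 at an unadjusted p below 0.05 in siNELF-A. The 1 of 14 in siNELF-B is 7.14%, near the 4.19% of all clusters. With siNELF-B replicates 2 and 3 left out, 5 fell in siNELF-E, 6 in siNELF-C and 2 in siNELF-A (7.81%, 14.8% and 8.97% of all clusters). The medians were then -0.42 on average and -0.52 in siNELF-B. CCNA2, cyclin A2, fell 2.60-fold on average (adjusted p = 0.00436) and by 2.45 log2 units in siNELF-E. CDC25A, the phosphatase that activates CDK2, fell 2.09-fold on average (adjusted p = 0.0114). CDK2, the kinase that activates the histone transcription factor NPAT, fell 1.83-fold on average (0.0139). The call of CDC25A was lost without control replicate 1 or 3 (adjusted p = 0.0598 and 0.101), and that of CDK2 without any 1 control array (up to 0.095). E2F1 fell 1.51-fold on average (0.0101), just past the fold limit. Its values of -0.28 to -0.44 under 3 other scalings of the arrays were not called. No listed gene other than these 4 was called lower on average. Whether any of them has a part in the histone result was not tested. LDHA (-0.15, adjusted p = 0.332) and COIL (-0.47, 0.156) did not pass on average, and COIL was the 1 call in siNELF-B (-0.93, 0.0458).

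Of 21 histone chaperone and import genes measured (of 24), 5 fell on average (23.8%, against 4.46% of all clusters; median -0.55), and 5, 5, 0 and 3 in siNELF-E, siNELF-C, siNELF-A and siNELF-B, with 9 at an unadjusted p below 0.05 in siNELF-A. With siNELF-B replicates 2 and 3 left out, 8 fell in siNELF-E, 12 in siNELF-C and 5 in siNELF-A (7.81%, 14.8% and 8.97% of all clusters). The medians were then -0.53 on average and -0.42 in siNELF-B. MMS22L, a partner in handling new H3-H4 at forks, fell 3.08-fold (adjusted p = 0.00352). ASF1B, which carries new H3-H4 dimers, fell 2.39-fold (0.00436), and HJURP, the CENPA chaperone, 2.28-fold (0.000829). CHAF1B, a subunit of chromatin assembly factor 1, fell 1.73-fold (0.00825), a call lost without control replicate 1 or 3 (0.0569 and 0.0709). RBBP7 (-0.55, adjusted p = 0.225) and SSRP1 (-0.57, 0.0674) did not pass.

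Of 21 S phase genes measured (of 26), 15 fell on average (71.4%, against 4.46% of all clusters), and 18, 11, 3 and 4 in siNELF-E, siNELF-C, siNELF-A and siNELF-B (4.04%, 5.3%, 2.83% and 4.19% of all clusters). When siNELF-B replicates 2 and 3 were left out, 19 fell in siNELF-E, 18 in siNELF-C and 11 in siNELF-A (7.81%, 14.8% and 8.97% of all clusters). Medians of the S phase genes were then -1.09 on average and -0.84 in siNELF-B. In the fit on all arrays their median was -1.11 on average, -0.59 in siNELF-A and -1.56 in siNELF-E cells. The medians of all 49 histone genes there were -0.93, -0.87 and -1.15. Without the 11 histone genes at low level in every group, those of the other 38 were -0.99, -0.98 and -1.49. TK1, thymidine kinase, fell 2.43-fold (log2 change -1.28, SE 0.15, adjusted p = 0.000537), by 0.98 in siNELF-A and 2.51 in siNELF-E. POLE2, a subunit of DNA polymerase epsilon, fell 2.74-fold (0.00783), GINS1, of the replicative helicase, 2.38-fold (0.00891), and CDC6, which loads that helicase, 2.40-fold (0.0335). The call of POLE2 was lost without control replicate 3 (adjusted p = 0.076), that of GINS1 without control replicate 1 or 3 (0.0504 and 0.0833), and that of CDC6 on leaving out any 1 of 9 arrays (up to 0.166 without control replicate 3). MCM4 (-0.55, adjusted p = 0.0898) and RFC3 (-0.83, 0.0655) did not pass, but RFC3 was called without siNELF-B replicates 2 and 3 (-0.84, 0.000346). Whether the S phase genes have a part in the histone result was not tested.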

How the data were processed

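The deposited values are log2 RMA values that the authors made in ArrayAssist from core exons on hg18, per the labels' protocols, at gene level (22011 transcript clusters) and exon level (287329 probe sets) for the same 15 arrays. The software version is not given in the sources used here. The deposited columns differ in spread and were used as deposited, since a common scaling could remove a shift shared by many genes. Clusters were named through the platform annotation: 14432 had 1 symbol, 2408 several and 5171 were not listed, and 22 were given their current symbol.

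A model with 1 mean per group was fitted over all 15 arrays with limma 3.58.1 (lmFit, eBayes) in R 4.3.3, with contrasts of each knockdown and of the mean of the 4 against control, and of the 6 pairs of knockdowns. P-values were adjusted by Benjamini-Hochberg over all clusters or all probe sets. The fit was tested on simulated data. For each class the text names the 3 called genes with the lowest average change and up to 2 uncalled genes with the highest level, every gene called in all 4 knockdowns, and up to 3 of the largest called differences per pair. Others named were chosen after their values were seen. For other lists it names up to 4 called and 2 uncalled genes by the same order, and others where called in 1 knockdown. Alternatives were other scalings of the arrays, a replicate block, a filter on low levels, the interquartile range as a covariate, 2 groups only, and leaving out arrays. The number of arrays limits precision, and so do their being technical repeats and the binding of probes to paralogs. The members and lists were chosen with earlier results of these data known. Promoter sequence is from RefSeq (GRCh38.p14).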

Additional observations from a re-analysis of the deposited data

How the results depend on the processing

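The count of lower histone genes in siNELF-E cells stayed within 1.5 times of 22 under every alternative run, and that in the average did except without single control arrays (leaving out 1 array gave 8 to 32 there, against 1.21% to 12.3% of all clusters). SiNELF-B had 0 under quantile normalization, median centring and 75th percentile centring (2.14%, 2.87% and 1.58% of all clusters). It also had 0 with the replicate block, the interquartile range as covariate and 2 groups only (1.84%, 0.55% and 0.0545%). At shares that low, a count of 0 says little about histone genes. SiNELF-B had 7 of 38 among clusters above the 40th percentile (18.4%, against 14.1% of those clusters). It had 23 without siNELF-B replicates 2 and 3 (17.8% of all clusters), where a single array is left. SiNELF-A had 7 with the replicate block, 30 without siNELF-B replicates 2 and 3 and 27 with 2 groups only (2.19%, 8.97% and 7.86% of all clusters), and siNELF-C 7 with the interquartile range as covariate, 31 and 30 (3.13%, 14.8% and 14.9%). Calls between knockdowns, 29 in all, became 66, 49 and 70 under the 3 scalings in that order, 97 with the covariate and 63 without siNELF-B replicates 2 and 3. Probe sets lower on average, 11, became 7 under quantile normalization, 33 without those arrays and 3 with the block. Leaving out 1 array gave ranges of 0 to 25 in siNELF-A, 0 to 32 in siNELF-B, 2 to 29 in siNELF-C, 16 to 27 in siNELF-E and 16 to 67 for the pairs. Over these fits 0.959% to 7.71%, 0.377% to 30.3%, 1.34% to 13.4% and 2.34% to 7.01% of all clusters were lower in those 4 knockdowns. Shares for the pairs moved too. Of all clusters 1.49% were lower in siNELF-E than in siNELF-A, and 3.17%, 2.71% and 3.82% under the scalings. With the covariate it was 5.5%. Shares of all probe sets under the alternatives were not counted. The causes were not tested. The scalings moved the median of all clusters in the average from -0.08 to 0.05, 0.07 and 0.21. The share of higher calls among all clusters there rose from 7.27% to 24.3%, 19.0% and 37.5%, while the siNELF-E histone median moved from -1.15 to -0.98, -1.05 and -1.02. Values that turned sign were not called: H1-1 (0.0748 and 0.219 under median and 75th percentile centring; -0.157 to 0.00895 over left-out arrays), LDHA (0.00163 and 0.146 under the same centrings) and MACROH2A1 (-0.0567 to 0.124 over left-out arrays). Replicate numbers did not pair the arrays: of 30 same-number correlations of deviations, from -0.297 to 0.203, 3 were over 0.1. With the replicate block siNELF-C had 11, siNELF-E 18 and the average 20 (3.89%, 3.5% and 3.52% of all clusters), and the pairs 24.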

Other observations

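Histone genes near the rule but outside it gave the following values. H1-6, the testis H1 gene, had a mean level of 3.52, below the low level, and an average value of -0.93 that was called by limma (adjusted p = 0.0396). H3-4, also known from testis, had a mean level of 3.84 and a value of -0.22 (adjusted p = 0.615). The 5 transcript clusters with several symbols, among them a replication-dependent histone gene, had average values of -0.49 to 0.16, and limma called none of them.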
